A study of Danio rerio with 6 samples.

Results

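The libraries described here are the 3 wild-type libraries of a series of 6, which were taken by their genotype label and by the names of their columns in the table of all genes. They hold values for 31901 genes, of which 25427 had at least 1 read in a wild-type pool. Each library was poly(A) RNA from a pool of 6 to 11 untreated wild-type larvae (AB and TL mixed background) at 3.5 to 4 days post-fertilization (dpf), sexually undifferentiated, and siblings of larvae homozygous for a mutation of the cell adhesion gene dscaml1, whose 3 pools are not used here. The parents were heterozygous carriers, the sources give no clutch or day for a pool, and a pool mixes several animals, so the spread below is between pools and not between larvae. The labels name the whole animal as the tissue, whereas the study's methods describe RNA from the anterior part of each larva, the posterior part having been kept for genotyping, and the values that bear on this are given with the hox genes.

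At this age a zebrafish larva has hatched or is about to hatch, its heart beats, its trunk muscle drives swimming, and its eyes and ears work. It lives on maternal yolk, which is handed to the body as lipoprotein particles, while the liver, the pancreas and the gut complete their differentiation for the first meals. A whole-body transcriptome sums all of these tissues, so a large organ or a tissue with few, very abundant messages (skin, muscle, liver, exocrine pancreas) takes many of the reads. In such bulk samples fewer cells of a type and less RNA per cell cannot be told apart.

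The wild-type pools 1, 2 and 3 held 23516860, 21863982 and 23278471 reads in genes, and values of the pools are given in this order throughout. All values are normalized counts, that is, reads divided by 1 size factor per library (1.72, 1.73 and 1.69), so 1 read is worth 0.581, 0.577 and 0.591, and they are not divided by transcript length. A higher value of one gene than of another is therefore a statement on reads, not on RNA molecules. Pool 2 stood apart from the others. Over the 20066 genes averaging 10 or more, the median difference was 0.35 and 0.39 on the log2(value + 1) scale between pool 2 and pools 1 and 3, against 0.20 between pools 3 and 1. Pool 2 was at least 2-fold higher than pool 1 in 765 genes and lower in 1985, whereas pool 3 was higher than pool 1 in 442 and lower in 245. Results are therefore given with and without pool 2 where it decides them. The targeted locus of the study, dscaml1 on chromosome 15 (GRCz11, 12071037 to 12229874), had 333, 395 and 375 normalized counts, rank 6504 of all genes.

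Skin keratin, translation, lipoprotein, muscle and mitochondrial genes led the list of abundant genes. krt4, a keratin of the larval skin on chromosome 6, was first in all 3 pools with 216206, 241668 and 162926 normalized counts (mean 206934 ± 40182, SD, n = 3 pools) and held 1.58%, 1.92% and 1.18% of all counts. The other skin keratins among the first 30 were krt5 (65158, 66245 and 57479), krtt1c19e (55777, 63889.5 and 44929.9) and krt91 (32571, 38169.9 and 34967). For krt4, krt5 and krtt1c19e pool 3 was the lowest and pool 2 the highest.

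Translation supplied the second gene of the list and several more. eef1a1l1, which encodes an elongation factor that brings aminoacyl-tRNA to the ribosome, had 127222, 113429 and 124799, and eef2b, the translocation factor, had 67685, 56186 and 68828. The ribosomal protein genes rplp0 (60974, 66991 and 61173), rps2 (61513, 55383 and 59339), rpsa (36089, 39964 and 38332) and rpl3 (37090.3, 33468 and 36455) differed little between pools. Together 86 genes with ribosomal protein symbols held 8.86%, 9.35% and 8.79% of the counts, more than any organ list below, and their median coefficient of variation (SD over mean, CV) was 4.27%.

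Plasma lipoprotein and carrier genes came next. apoa2, which encodes a protein of high-density lipoprotein particles, had 98223, 74122 and 104434 normalized counts. apoa1b, the main protein of the same particles, had 104878, 55176 and 98627, and its paralogue apoa1a had 54805, 46937 and 40323. apobb.1, an apolipoprotein B gene whose product carries yolk and liver lipid in large particles, had 74045, 70066 and 90582. The retinol carrier rbp4 was the gene of the first 30 with the widest spread, at 52729.9, 18510.4 and 48758. In pool 2 apoa2, apoa1b, apobb.1 and rbp4 were each at their lowest, while apoa1a was lowest in pool 3.

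Muscle genes of the first 30 were all lowest in pool 2. pvalb1, which encodes parvalbumin, the calcium buffer of fast muscle fibres, had 106402, 47923 and 110346, at ranks 3, 19 and 3 of the pools. pvalb2 had 59182, 31959.7 and 57298, the myosin light chain gene mylpfa 51940.4, 35754 and 49125, the tropomyosin gene tpma 50225, 26694 and 43955 and the sarcomeric actin gene actc1b 41951, 27495 and 45429. By contrast the cytoplasmic actins actb2 (74527, 77198 and 79750.4) and actb1 (60749, 63783 and 60298) had a CV of 3.38% and 3.08%.

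The rest of the first 30 were genes that nearly every cell uses, with a collagen. The mitochondrial genes mt-co1 (89716, 72183 and 103421), mt-co2 (76750.1, 59486 and 77048) and mt-co3 (37329, 26815 and 41325) encode subunits of cytochrome c oxidase, and all 3 were lowest in pool 2. The chaperones hspa8 (94003, 70979 and 86223) and hsp90ab1 (63392, 54945 and 64854) are the constitutive members of the heat shock families. slc25a5, the ADP/ATP carrier of the inner mitochondrial membrane, had 57651, 48978 and 57799, and tpt1, the translationally controlled tumor protein gene, had 56654, 52966 and 52690.5. col1a1a, the collagen of dermis, fin and bone, had 40695, 43125 and 32531.

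**Figure D1:**
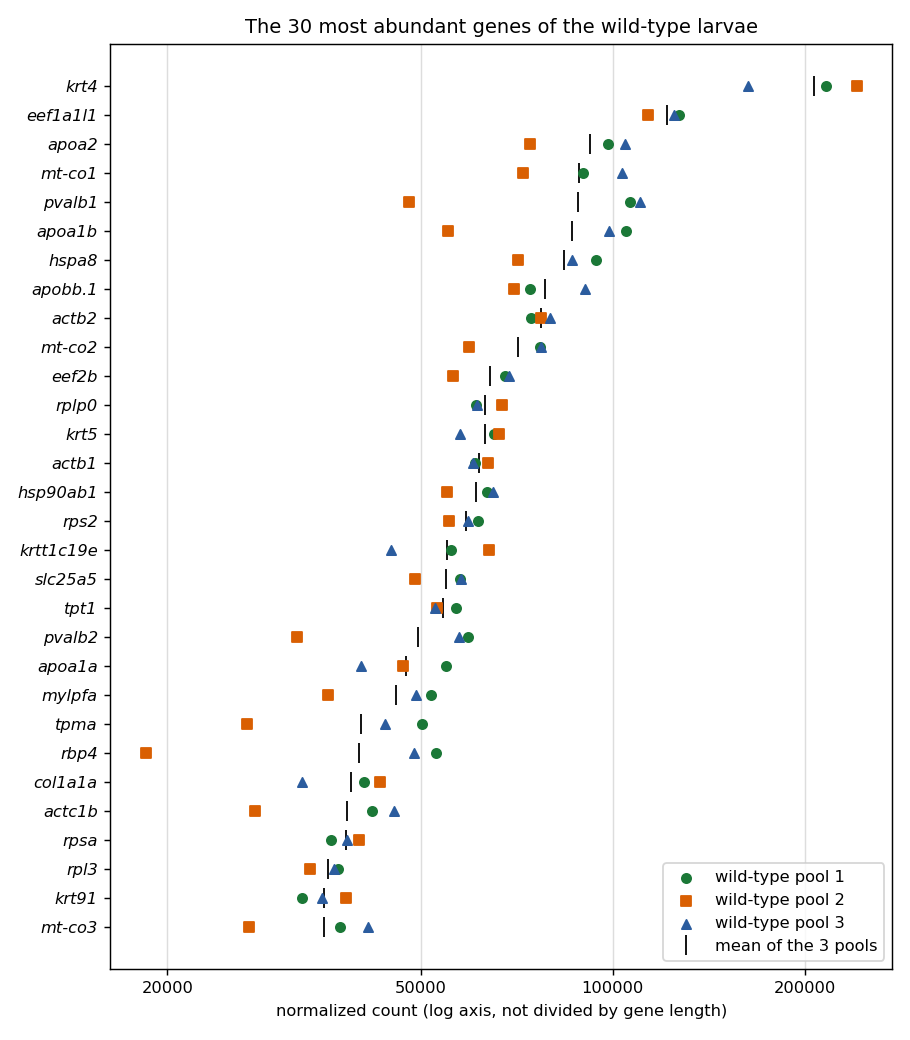
Normalized counts (horizontal log axis, not divided by gene length) of the 30 genes with the highest mean, 1 row per gene, with a point for each wild-type pool and a black tick at their mean. krt4 stands at the top in all 3 pools, and the pool 2 points of the muscle genes and of rbp4 lie left of the other pools.

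A small number of genes held most of the reads. The 10 most abundant genes of a pool held 7.77%, 7.27% and 7.54% of its counts, the first 30 held 15.4%, 14.4% and 14.9%, and the first 100 held 26.8%, 25.8% and 26.7% (mean 26.4% ± 0.50, SD, n = 3 pools). The first 1000 held 56.7%, 54.6% and 56.4%. The number of genes that reached 50% of the counts was 613, 717 and 626, so the counts of pool 2 were spread over more genes. Of the first 30 genes of each pool, 27 were shared by pools 1 and 3, and 23 by all 3. Leaving out pool 2 kept all 10 of the 10 highest means and 29 of the 30.

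At the other end, 24393, 24191 and 24404 genes had at least 1 read, 23210 of them in all 3 pools, and 6474 genes of the table had none. A mean of at least 100 normalized counts was reached by 13389 genes, of at least 1000 by 2237 genes with 67.7% of the counts, and of at least 10000 by 176 genes with 32.8%. eef1a1l1 and krt4 were the 2 genes above 100000. Reads were missing only in pool 2 for 486 genes and present only in pool 2 for 326.

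Nearly all counts came from protein-coding genes, at 99.3%, 99.3% and 99.3% (mean 99.31% ± 0.0077, SD, n = 3 pools). The 6469 genes of all other biotypes together held 0.689%, 0.698% and 0.683%. Poly(A) selection removes most RNA without a tail. The 1966 annotated rRNA genes held 0.00106%, 0.000988% and 0.00131%. How reads of repeated rRNA gene copies were counted is not given in the sources used here, and its part in this share was not tested. Processed transcripts held 0.277%, 0.281% and 0.269%, of which the ribosomal protein gene rps20, annotated in this class, had 17508, 19550.5 and 18621 normalized counts. Long intergenic RNAs held 0.254%, 0.278% and 0.241%. Their most abundant member was CU693494.2 on chromosome 2 (8527, 6314 and 6159). The next, chosen after their values were seen, were CR383676.1 (3598, 5278 and 3777) and oip5-as1 (3806, 4468 and 3509), a conserved cytoplasmic long RNA known as Cyrano. Both of these overlap another gene of the table. dio3b, which encodes a thyroid hormone inactivating deiodinase and is annotated as a processed transcript, had 2809, 817 and 1836 and was lowest in pool 2.

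Antisense genes held 0.0448%, 0.0458% and 0.0507% of the counts, led by si:ch211-39i2.2 (752, 393 and 948). The methods describe a stranded kit, but whether strand was used in counting is not given in the sources used here, so reads of an antisense gene and of its partner may be mixed. Unprocessed pseudogenes held 0.0313%, 0.0233% and 0.0349%, led by CR626907.1 (771, 569.6 and 946), whose description reads alpha-2-macroglobulin-like. Of 434 microRNA genes 1 reached a mean of 10, dre-mir-181b-3 (19.2, 25.4 and 16.0), and 0 of 541 spliceosomal snRNA genes did. These classes are the short or untailed RNAs that such libraries do not aim to capture.

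Chromosome 3 held the largest share of counts, 7.24%, 7.63% and 7.19% (mean 7.35% ± 0.243, SD, n = 3 pools), with 1619 genes or 5.08% of the genes of the table. It carries 10 of the 100 most abundant genes, among them pvalb1, actb2, rps2, mylpfa, col1a1a and rpl3, and its share was 5.60% when these 100 were left out. Chromosome 19 followed with 6.02%, 6.48% and 5.80% and 9 of the 100 (eef1a1l1 first), and chromosome 6 with 6.12%, 6.47% and 5.67%, of which krt4 alone made up 25.5%. Without the 100 most abundant genes chromosome 7 had the largest share (5.92%, against 5.10% with them). apoa1b held 20.5% of the counts of chromosome 15, hspa8 19.3% of those of chromosome 10, and apobb.1 14.7% of those of chromosome 20. On chromosome 16, whose first gene is apoa2, the shares were 5.37%, 4.83% and 5.64%, and on chromosome 13, where rps24 was first with 4.33%, they were 2.97%, 2.93% and 2.94%.

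The 37 genes of the mitochondrial genome held 2.399%, 1.94% and 2.58% of the counts, and 2.49% on average in pools 1 and 3. The 13 protein-coding ones held 2.37%, 1.92% and 2.54%, and all were lowest in pool 2. mt-co1 alone made up 29.0% of these. The lowest was mt-nd6, the only one on the light strand (173, 138 and 192). Among the mitochondrial rRNAs, which held 0.0270%, 0.0199% and 0.0332%, the larger had 2829, 1726 and 3172 and the smaller 859, 783 and 1399.

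Chromosome 4 had the most genes (2338, 7.33% of the table) and the lowest share of counts of the 25 nuclear chromosomes, 2.04%, 2.05% and 2.03%. None of its genes was among the 100 most abundant, and 34.8% of its genes reached a mean of 10, against 62.4% on chromosome 3 and 69.5% on chromosome 6. The long arm of this chromosome is known as a late-replicating, repeat-rich region with many copies of a few gene families. Windows of 10 Mb were chosen after the values were seen, and their shares are first given for the mean over the 3 pools. The windows at 0 to 10, 10 to 20 and 20 to 30 Mb held 36.2%, 34.4% and 19.1% of the chromosome's counts. The windows from 30 to 70 Mb held 0.556%, 0.535%, 0.471% and 0.497%, and 29.5%, 26.5%, 19.2% and 18.1% of their protein-coding genes reached a mean of 10, against 90.6% in the first window. From 70 Mb to the end the share was 8.13%. In all 3 pools the windows from 30 to 70 Mb held the smallest shares, with 0.442%, 0.576% and 0.402% in the window from 50 to 60 Mb. From 70 Mb to the end the pools held 7.66%, 7.38% and 9.30%. In pool 2 the window from 10 to 20 Mb (36.4%) held more than the first (35.3%), unlike in pools 1 and 3. How reads of near-identical gene copies were counted is not given in the sources used here, and its part in these values was not tested.

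**Figure D2:**
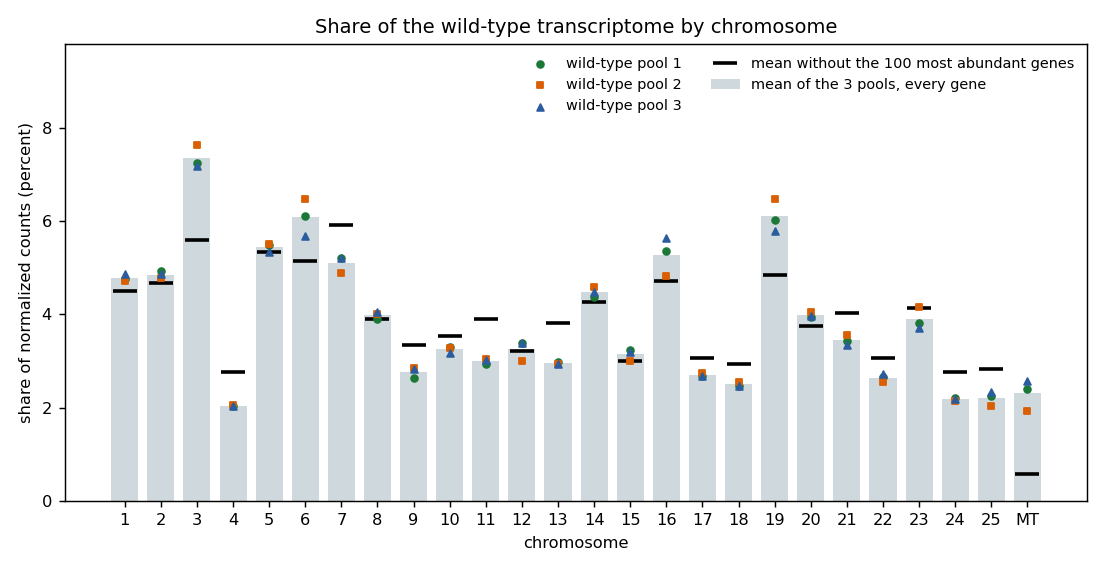
Share of normalized counts in percent (vertical axis) by chromosome, with bars at the mean of the 3 wild-type pools, a point for each pool, and a black dash at the mean share when the 100 most abundant genes are left out. Chromosome 3 stands highest at 7.35% and drops to 5.60% without those genes, and chromosome 4 is the lowest nuclear chromosome at 2.04%.

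Organs, cell types and some other gene sets were followed with 44 lists of marker genes (706 of 751 symbols found, 717 gene identifiers). Together the lists held 20.2%, 17.4% and 20.2% of the counts. The other sets were dividing cells, clock and light genes, glucocorticoid and stress genes, and reference genes for quantitative PCR. The reference genes held 2.62%, 2.76% and 2.59%. A list's share is the sum of its members and depends on how many very abundant genes it names, so lists are read across pools and not against each other. By share of counts, pool 2 was the lowest in 25 lists, the highest in 17 and between the others in 2. By normalized count, it was the lowest in 40.7% and the highest in 42.3% of all 20066 genes averaging 10 or more. The 2 scales differ, because the normalized counts of the pools summed to 13662577, 12604711 and 13762016. A share therefore places pool 2 higher relative to the other pools than the normalized counts printed for members, which also set their places.

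**Figure D3:**
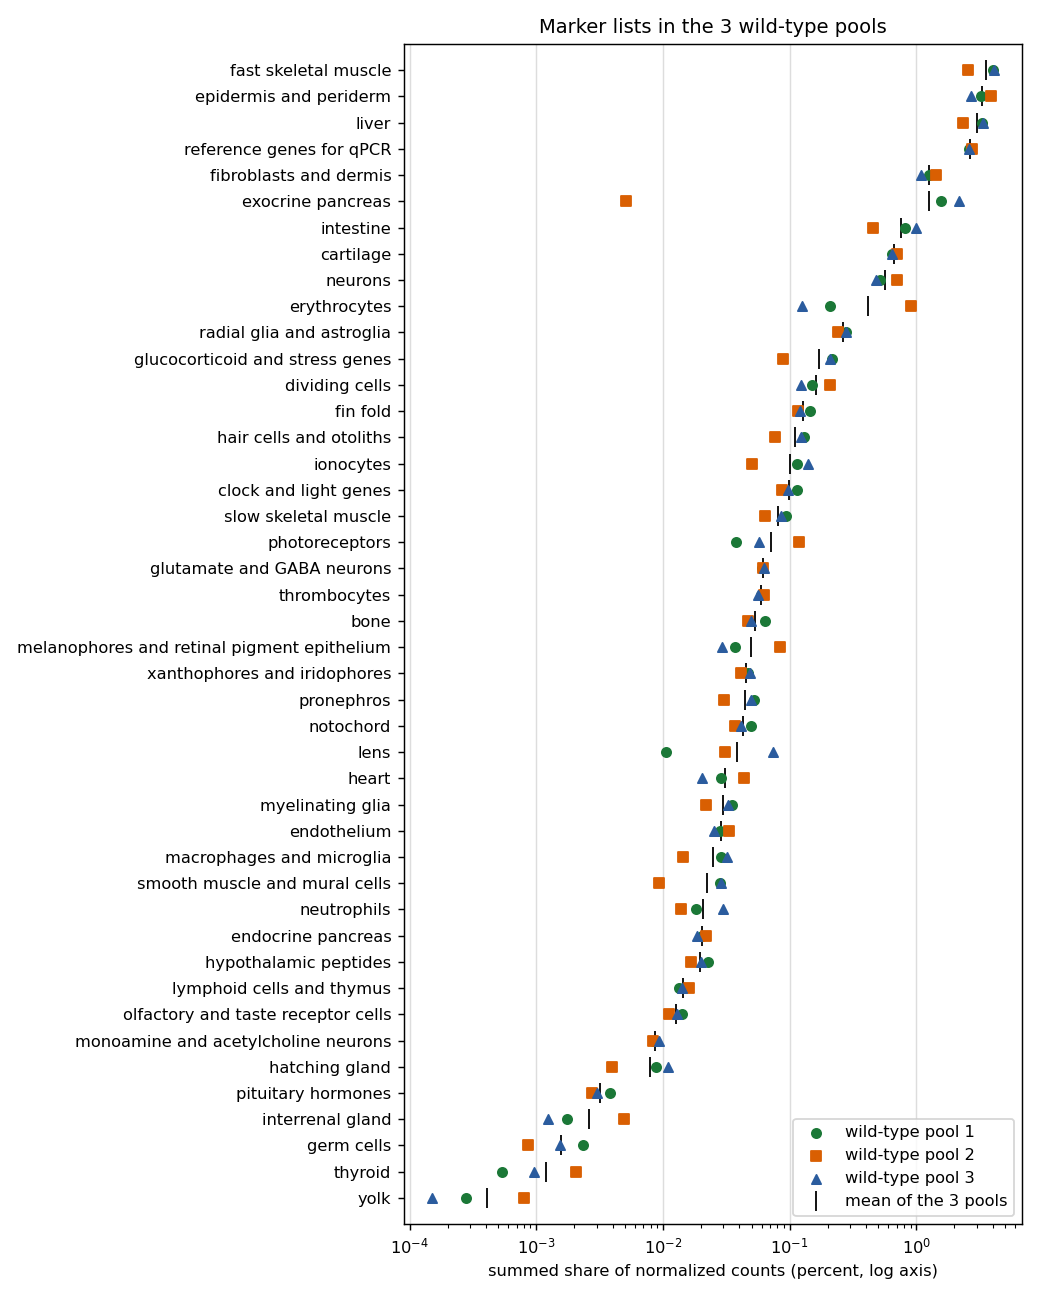
Summed share of normalized counts in percent (horizontal log axis) of 44 marker lists, 1 row per list ordered by mean, with a point for each wild-type pool and a black tick at the mean. The ratio of the highest to the lowest pool is largest for exocrine pancreas (429, pool 2 at 0.00508%), erythrocytes (7.32, pool 2 at 0.915%) and lens (6.99).

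The skin lists held the epidermis at 3.25%, 3.88% and 2.69% and ionocytes, the ion-pumping cells of the larval skin, at 0.114%, 0.0500% and 0.140%. Of 16 epidermal members 9 were highest and 6 lowest in pool 2, and krt4 made up 47.7% of the sum. The other members did not move together. Of 19 genes with keratin symbols, 7 were highest and 12 lowest in pool 2. cyt1l, a type I keratin gene, had 12888, 24945 and 10485 and anxa1c, an annexin gene of the skin, 587, 1731 and 816, whereas krt92 had 6277, 1406 and 5946 and the keratin krt17 6601, 3811 and 7201. All 10 ionocyte members were lowest in pool 2. ceacam1 had 4586, 1791 and 6639 and atp1b1b, a subunit of the sodium pump, 3913, 1997 and 3924. trpv6, the epithelial calcium channel, had 1892, 444 and 2867, and the ammonia transporter rhcgb 938, 79.6 and 1262. The transcription factors that specify these cells, foxi3a (529, 215 and 701), foxi3b (647, 336 and 787) and gcm2 (558, 279 and 641), had the same order.

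Fast skeletal muscle held 4.06%, 2.54% and 4.13%, and 26 of its 29 members were lowest in pool 2. Besides the genes given above, the muscle creatine kinases ckma (26055, 14239 and 26109) and ckmb (24285, 14411 and 24575) and the myosin heavy chain gene myhz1.1 (13910.2, 8198 and 19760.0) followed this order. Of the 3 exceptions the skeletal actin genes acta1a (1559, 2521 and 1324) and acta1b (5626, 5687 and 4749) and the troponin T gene tnnt3a (2226, 2816 and 1611) were highest in pool 2. The myosin heavy chain and actin genes have close copies, between which reads may be split. Slow muscle held 0.0928%, 0.0637% and 0.0855%. Its first member tpm2 had 7931, 4225 and 7056, while the slow myosin genes smyhc1 (1835, 1430.3 and 2112) and smyhc2 (830.2, 896 and 857) differed less.

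The heart list held 0.0288%, 0.0439% and 0.0204%, and 11 of its 12 members averaging 10 or more were highest in pool 2. myl7, the cardiac myosin light chain, had 954, 1022 and 574, the cardiac actin gene actc1a 1150.3, 2007 and 843 and the troponin T gene tnnt2a 405, 504 and 307. The natriuretic peptide gene nppa had 302, 538 and 272 and the atrial myosin gene myh6 112, 209 and 75.7. The exception was gata4, a cardiac transcription factor that endoderm also uses (54.6, 53.6 and 53.2). Smooth muscle went the other way, with 0.0281%, 0.00934% and 0.0288%. acta2, the smooth muscle actin, had 1713, 163 and 1749 and myh11a, its myosin, 658, 101 and 597. desmb had 338, 34.6 and 385, while pdgfrb, a receptor of pericytes and other mesenchyme, had 295, 284 and 320.4 and foxc1b 285, 468 and 269.6.

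Liver markers held 3.32%, 2.35% and 3.36%, and 28 of 32 members were lowest in pool 2. apoa2 made up 22.8% of the list, which without it held 2.60%, 1.76% and 2.60%. The apolipoprotein genes apoa2, apoa1b and apobb.1 led the sum, which hides how far some other members differed. As given above, the product of apobb.1 carries yolk lipid too, so the sum is not read as a level of the liver alone. The plasma proteins tfa (transferrin, 27865, 19281 and 24279.6), the fibrinogen chains fga (5656, 2968 and 5667), fgb (4794, 3209 and 5164) and fgg (5382, 2953 and 5826), and prothrombin f2 (3224, 1770.4 and 2646) were lower in pool 2 but well above 0 there. Others were far lower in pool 2. fabp10a, the fatty acid binding protein of hepatocytes, had 5253, 214 and 5447, the vitamin D carrier gc 1608, 51.3 and 1496, transthyretin ttr 919.7, 24.8 and 745 and ahsg2, a fetuin gene, 286, 2.88 and 351. apoba (5175, 9772 and 4919) and gatm (6818, 7963 and 6664), which encode an apolipoprotein B and an enzyme of creatine synthesis, were highest in pool 2, and a2ml (3612, 4022 and 3210.2) was as well.

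The exocrine pancreas was the list on which the pools differed most, at 1.57%, 0.00508% and 2.18% of the counts, a mean of 1.88% in pools 1 and 3. All 21 members averaging 10 or more were lowest in pool 2. The trypsin genes prss1 (26191, 157 and 35920.2) and prss59.2 (26866, 135 and 40428) and the chymotrypsinogen gene ctrb1 (22877, 53.0 and 29882) led it. The sum of the endocrine islet list was close to even, at 0.0205%, 0.0217% and 0.0185%, but 8 of its 11 members averaging 10 or more were lowest in pool 2. Its first member neurod1 (781, 1597 and 660.4), a transcription factor that neurons and retina also use, was highest in pool 2, and pax6b (193, 349 and 341) was too. Without neurod1 the list held 0.0148%, 0.00907% and 0.0137%. The hormones ins (259, 81.3 and 167), gcga (325, 69.2 and 287) and sst2 (279, 63.4 and 219) and the pancreatic transcription factor pdx1 (42.4, 12.7 and 36.1) were lowest there.

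The intestine held 0.815%, 0.454% and 0.992%, with 27 of 29 members lowest in pool 2. apoa1a made up 46.6% of the list, which hides how far the others differed. Without apoa1a the list held 0.413%, 0.0817% and 0.699%. The enterocyte lipid carriers fabp2 (10658, 1802 and 18178) and fabp1b.1 (9042, 3728 and 11486) were present in every pool. vil1, which encodes villin of the brush border, had 4002, 92.8 and 4754, the peptide transporter slc15a1b 636, 5.19 and 1467 and the sodium-glucose transporter slc5a1 637, 6.92 and 1130.4. chia.2, an acidic chitinase, had 6499, 16.1 and 25034 and also differed between pools 1 and 3, as did the ileal bile acid carrier fabp6 (947, 1.73 and 115). cdx1b, a transcription factor of the gut epithelium, had 173, 58.2 and 232. The kidney list (pronephros) had 0.0526%, 0.0305% and 0.0498%, and 11 of 13 members were lowest in pool 2. cdh17, a cadherin of the pronephric duct, had 1612, 228 and 2212 and cubn, the endocytic receptor of the tubule, 426, 106 and 231, whereas pax2a, a transcription factor of kidney, ear and hindbrain, had 229, 512 and 215.

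Erythrocyte genes went the other way, at 0.208%, 0.915% and 0.125%, with 18 of 20 members highest in pool 2 and a mean of 0.167% in pools 1 and 3. The embryonic globins hbae3 (9352, 40188 and 4629) and hbbe1.3 (4994, 24568 and 2697) led, the anion exchanger slc4a1a had 190.0, 2644 and 79.8, and alas2, the first enzyme of red cell heme synthesis, 219, 2523 and 81.6. The exceptions were rhag (5008, 4233 and 4238) and slc25a37, the mitochondrial iron carrier (22.7, 25.4 and 33.7). The adult globin genes hbaa2 and hbba1 were listed at 0 in all pools. Globin genes lie in tandem copies, so the split between them is uncertain.

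White blood cell lists were small. Macrophages and microglia held 0.0288%, 0.0145% and 0.0318%, and 0 of 19 members were highest in pool 2. mpeg1.2, a pore-forming protein of macrophages, had 1425, 553 and 1403, and slc7a7 625, 247 and 664. Neutrophils held 0.0181%, 0.0139% and 0.0300%, with 7 of 12 members lowest in pool 2, 2 between the others and 3 highest. mmp9, a secreted protease, had 438, 256 and 1859 and was highest in pool 3, whereas mpx (69.7, 105 and 75.7), the myeloperoxidase, and lyz (24.98, 90.5 and 26.6), lysozyme, were highest in pool 2. Of the lymphoid genes rag1, the recombinase of thymocytes, had 342, 54.8 and 306. The lymphoid list was led by tox (1128, 1681 and 1205) with 69.7% of its sum, and the thrombocyte list by fn1b (8019, 7643 and 7633) with 97.6%, genes that other tissues also use, so these sums are not read as levels of the blood cells. itga2b, the thrombocyte integrin, had 2.32, 1.15 and 0.591. Endothelium held 0.0281%, 0.0334% and 0.0252%, with the vascular cadherin cdh5 at 441, 629.5 and 379.5, the receptor kdrl at 362, 454 and 396 and plvapb at 639.6, 492 and 416.

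Neuronal genes held 0.518%, 0.702% and 0.480%, with 20 of 29 members highest in pool 2. Among those named here, most of them after their values were seen, the RNA-binding protein gene elavl3 (1973, 4138 and 2244), its paralogue elavl4 (2585, 4398 and 2159.6), the tubulin gene tubb5 (4252, 7498 and 3642) and the growth cone gene gap43 (801, 1244 and 549.8), were highest in pool 2. The synaptic genes snap25a (3488, 3314 and 3146), sypa (3391, 3322 and 3435) and syt1a (2421, 2319.9 and 2638) were not, and neither was eno2, a neuronal enolase (1270.0, 883 and 1233). gpm6aa led the list with 9591, 12149.9 and 8936. The sum of the glutamate and GABA list, 0.0610%, 0.0619% and 0.0630%, was by share the most even of the 44. The ratio of these shares between the highest and lowest pool was 1.03. As summed normalized counts the list had 8336, 7804 and 8674, so on that scale it was lowest in pool 2 and not the most even. Among its members were gad2, a GABA-synthesizing enzyme, with 1139, 1074 and 1205, slc17a6b, a vesicular glutamate transporter, with 788, 749 and 883, and the glycine transporter gene slc6a9, with 2015, 1174 and 2136. The monoamine and acetylcholine list held 0.00835%, 0.00834% and 0.00938%. The acetylcholine enzyme chata had 249.8, 252 and 303, the serotonin transporter slc6a4a 299, 240.4 and 289 and the dopamine enzyme th 38.9, 36.3 and 26.01.

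The list of radial glia and astroglia held 0.278%, 0.240% and 0.279%. Without ptgdsb.1, which made up 28.9% of it, it held 0.188%, 0.204% and 0.176%, so pool 2 was then highest. Of 15 members 7 were lowest in pool 2 and 8 highest. ptgdsb.1, a lipocalin-type prostaglandin synthase, had 12279, 4435 and 14133, the glutamine synthetase glula 6712, 3021 and 5489 and fabp7a, the fatty acid binding protein of radial glia, 4277, 8351 and 4002. The first pair were lowest in pool 2 and fabp7a was highest there, as was gfap, the filament of astroglia (837, 1257 and 820.0). Myelinating glia held 0.0353%, 0.0217% and 0.0329%, and 7 of 11 members were lowest in pool 2. mbpb made up 39.9% of the list, which without it held 0.0209%, 0.0125% and 0.0206%. The myelin genes mbpa (911, 126 and 929), mpz (196, 31.1 and 231) and plp1b (180.1, 25.9 and 209) were lowest in pool 2, by a wider margin than these sums. The lineage factors sox10 (369, 384 and 361) and olig2 (93.0, 175 and 72.7) were not lowest there.

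Hypothalamic peptide genes held 0.0226%, 0.0166% and 0.0198%, with 16 of 19 members lowest in pool 2. adcyap1b, a PACAP gene, led with 1182, 1003 and 1019, followed by the tachykinin gene tac1 (239, 239.8 and 232) and the somatostatin gene sst1.1 (182, 107 and 153). The stress peptide crhb, which drives the release of pituitary ACTH, had 56.9, 31.7 and 54.4. The nonapeptides avp (26.1, 31.1 and 30.2) and oxt (40.7, 36.3 and 49.7) differed less between pools. Pituitary hormones held 0.00381%, 0.00273% and 0.00300%. Growth hormone gh1 led this list with 271, 131 and 237. pomca, the ACTH precursor, had 87.1, 96.3 and 90.5 and prolactin prl 57.5, 70.33 and 19.5. fshb was listed at 0 and lhb, the other gonadotropin, had 5.81, 0 and 2.36. The interrenal gland, which makes cortisol in fish, held 0.00176%, 0.00489% and 0.00123%. cyp17a1 made up 81.5% of it with 187, 528 and 121, and the cortisol enzyme cyp11c1 had 8.13, 36.3 and 10.1. The thyroid list was smaller still (0.000540%, 0.00204% and 0.000962%), with thyroglobulin tg at 20.3, 65.1 and 56.2.

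The list of glucocorticoid and stress genes, which includes receptors as well as responding genes, held 0.217%, 0.0885% and 0.207%. Of its 19 members averaging 10 or more, 16 were lowest in pool 2. Without pck1, which made up 30.9% of it, the list held 0.134%, 0.0809% and 0.142%. pck1, an enzyme of glucose production, had 11398, 962 and 9032, the kinase gene sgk1 3152, 514 and 2048, the receptor cochaperone fkbp5 2029.9, 249.6 and 2222 and klf9, a transcription factor, 1209.6, 75.5 and 711. The glucocorticoid receptor nr3c1 itself had 1173, 1274 and 1172. The immediate early gene egr1 (2053, 969.7 and 4012) was highest in pool 3. The hour of collection is not given in the sources used here. Clock genes, whose levels cycle over the day, held 0.114%, 0.0873% and 0.0970%. nr1d2a, a repressor of the clock, had 1911, 884 and 1642, per2, the light-induced period gene, 1391, 545 and 1449 and per1b 784, 892 and 236. The activators arntl1b (262, 144 and 456) and npas2 (179, 45.0 and 278) were highest in pool 3. Clock genes thus differed among all 3 pools, and the part of the hour of collection was not tested.

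Photoreceptor genes held 0.0380%, 0.119% and 0.0575%, with 25 of 29 members highest in pool 2. gnb1b, a G protein subunit used in many tissues, led with 2560.3, 3405 and 2742. rho, the rod opsin, had 125, 929.9 and 698, the red cone opsin opn1lw2 115, 1149 and 275 and the ultraviolet cone opsin opn1sw1 119, 812 and 265. The photoreceptor transcription factor crx had 12.8, 711 and 151, so pool 1 was the lowest for all of these. Pigment cells with melanin held 0.0369%, 0.0834% and 0.0294%, and all 13 members were highest in pool 2. pmela had 2062, 3509.8 and 1641, tyrp1b 1809.7, 3775 and 1397, and the melanin enzymes dct 195, 915 and 154 and tyr 131, 342 and 105. rpe65a, the visual cycle enzyme of the retinal pigment epithelium, had 50.5, 169 and 32.5. The xanthophore and iridophore list was even as a sum (0.0471%, 0.0413% and 0.0483%), but its members were not. pnp4b had 1935, 30.6 and 2170.3, whereas gch2, an enzyme of pteridine pigment, had 376, 2639 and 378.

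The lens was the tissue on which pools 1 and 3 parted, at 0.0105%, 0.0307% and 0.0737%. 12 of 18 members had pool 2 between the others. cryba2b, a beta crystallin, had 548, 1227 and 2331, cryba1l1 167, 583 and 1432 and crybb1l2 164, 473 and 1434. bfsp2, a filament gene of lens fibres, had 5.81, 48.4 and 212. Over 60 genes with crystallin symbols the shares were 0.0905%, 0.208% and 0.332%. The crystallins of the gamma M family are near-identical copies, so single members are uncertain. Among the ear and lateral line genes (0.130%, 0.0770% and 0.122%), the otolith gene stm had 6717, 2429 and 6173, pvalb8, a parvalbumin of hair cells and neurons, 3691, 1212 and 3716, and the hair cell myosin myo7aa 324, 326 and 318. The olfactory and taste receptor list held 0.0141%, 0.0111% and 0.0129%, of which calb2a alone made up 66.9%. Without calb2a it held 0.00435%, 0.00400% and 0.00430%. The olfactory marker gene ompa had 92.4, 74.4 and 89.3 and ompb 89.5, 107 and 97.5.

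Of the skeletal and connective tissue lists cartilage was the most even. It held 0.640%, 0.705% and 0.638%, with the type II collagen col2a1a at 24011, 22586 and 24713, col11a1a at 17362, 18506 and 16498 and matn4 at 6868, 6904 and 6767. hapln1a (2507, 5913 and 2077), which encodes a link protein of the matrix, stood out from them in pool 2. Fibroblasts and dermis held 1.26%, 1.44% and 1.09%, with col1a1b at 28329, 29659 and 26403 and sparc, a collagen-binding matrix protein, at 24573, 22491 and 22792. Bone held 0.0641%, 0.0470% and 0.0496%. The hypertrophic and osteoblast collagen col10a1a made up 81.7% of it (7233, 4795 and 5545), and sp7, the osteoblast transcription factor, had 207, 187 and 133. The fin fold list held 0.146%, 0.116% and 0.120%. and2, an actinodin of the larval fin rays (9660.4, 4129 and 7609), made up 41.9% of it. Without and2 the list held 0.0751%, 0.0834% and 0.0651%. Of its 10 members averaging 10 or more, 6 were highest and 4 lowest in pool 2. The notochord list held 0.0494%, 0.0368% and 0.0416%, led by cav1 (3589.8, 2819.7 and 3219), a gene of many cell types. The brachyury gene tbxta had 24.98, 14.4 and 14.8.

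Genes of dividing cells held 0.150%, 0.209% and 0.123%, and 22 of 23 members were highest in pool 2. mki67, a protein of proliferating nuclei, had 1809, 2759 and 1347, the replication clamp pcna 4272, 5015 and 3845 and the mitotic cyclin ccnb1 372, 690.1 and 338. Germ cells held 0.00233%, 0.000860% and 0.00153%. piwil1 had 101, 27.1 and 65.0 and ddx4, the germ plasm helicase known as vasa, 91.8, 21.3 and 47.9. Vitellogenin genes, which the adult liver expresses to make yolk, were near 0 as a list (0.000281%, 0.000796% and 0.000150%), with vtg7 at 31.4, 87.6 and 14.8. The hatching gland list was led by ctsl.1 (1172, 323 and 1405) with 90.2%, a gene of other tissues too. Of its own enzymes he1.1 had 32.0, 116 and 85.7, he1.2 4.65, 35.7 and 13.01 and the detected ctslb gene 0.581, 20.8 and 5.91, all of them highest in pool 2 and lowest in pool 1.

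Hox genes, which pattern the body axis in the order of their paralogue groups, are the values that bear most directly on which part of the larva was sampled. Groups 1 to 5, which act in hindbrain and anterior trunk, held 80.7%, 81.2% and 81.4% of all hox counts. Groups 6 to 8 held 10.6%, 12.5% and 10.6%, and groups 9 to 13, which act in the posterior trunk, tail and fins, 8.68%, 6.26% and 7.99%. The summed values of all hox genes were 2951, 5296 and 2243, highest in pool 2. The most abundant were hoxb3a (593, 1365 and 486) and hoxc3a (731, 943 and 563). Posterior hox genes were detected in every pool. hoxb9a had 51.1, 92.2 and 36.1, hoxa13b 29.6, 39.2 and 28.4, hoxd9a 28.5, 24.2 and 24.8, hoxa11b 24.4, 35.7 and 14.2, hoxa10b 19.2, 28.8 and 13.01 and hoxd12a 11.6, 25.9 and 17.1. hoxa9b (20.3, 19.6 and 12.4), hoxd10a (18.0, 16.7 and 6.50), hoxb10a (15.1, 9.22 and 8.28) and hoxc10a (15.1, 2.31 and 4.73) were lower. So were hoxd11a (9.88, 11.5 and 4.14), hoxd13a (6.39, 16.7 and 1.77) and hoxa13a (4.07, 6.34 and 5.91). hoxa9a, hoxa11a, hoxc12b, hoxb13a and hoxc13b had a mean under 2, and hoxc9a, hoxc11a, hoxc11b, hoxc12a and hoxc13a were listed at 0. Group 13 genes also act in the fin folds and the hindgut, and a tail-rich and a tail-poor sample were not compared, so the values do not settle the tissue.

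**Figure D4:**
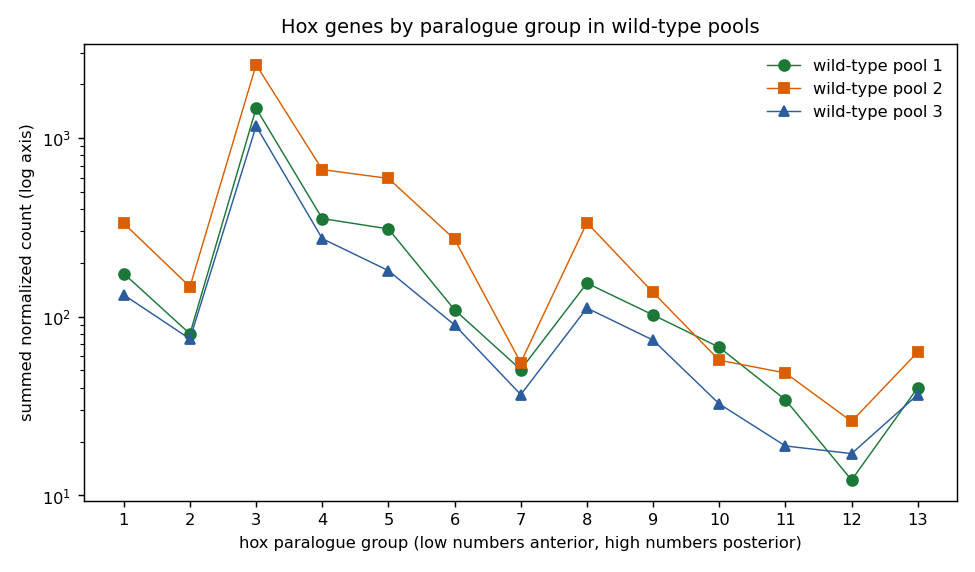
Summed normalized counts (vertical log axis) of the hox genes of each paralogue group, 1 to 13 from anterior to posterior, with 1 line per wild-type pool. The sums are highest for group 3 (1463, 2565 and 1164 in pools 1, 2 and 3) and lowest for group 12 (12.2, 25.9 and 17.1), and pool 2 is highest in 12 of the 13 groups.

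Of 48 hox genes 16 were listed at 0 in all 3 pools, and 15 of these lie wholly inside the annotated span of another gene, such as hoxb1a, hoxb2a, hoxb4a, hoxb5a and hoxb6a inside hoxb3a (chromosome 3, 23697997 to 23771945). Of the 32 hox genes above 0, 11 lie inside another gene. The same held across the table. Of 2020 protein-coding genes at 0 in all pools, 52.9% lie inside another gene of the table, against 3.37% of the 19590 that averaged 10 or more and 7.54% of the 3822 detected below that level. Among the markers listed at 0, 11 of 20 lie inside another gene. These included pmch, the melanin-concentrating hormone precursor, inside nup37, the neuronal gene stmn1b inside paqr7b, pecam1, an adhesion gene of endothelium, inside sec14l1, and hsp70.3 inside atp2a1. The apolipoprotein genes apoa4b.1, apoa4b.2 and apoa4b.3 lie inside nbn. This overlap was looked for after the values were seen, and its part in the values of 0 was not tested. The shares of the hox groups rest on the 32 genes above 0.

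Between pools the median CV of the 20066 genes averaging 10 or more was 18.3% (lower and upper quartiles 10.6% and 31.1%), and 9.70% for pools 1 and 3 alone. At the same true spread, fewer pools give a lower median CV, so these medians are not strictly comparable. A CV under 10% was found for 4614 genes, 23.0%, and over 50% for 2028, 10.1%. The spread was largest for genes of low level. The median was 31.3% for means of 10 to 30, where the counting error expected from the reads is 17.9%. Above 10000 it was 9.13%, where that expected error is 0.593%. In the middle bins, from 300 to 10000, the median stayed between 14.4% and 16.0%, while for pools 1 and 3 it went on falling to 6.21%.

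**Figure D5:**
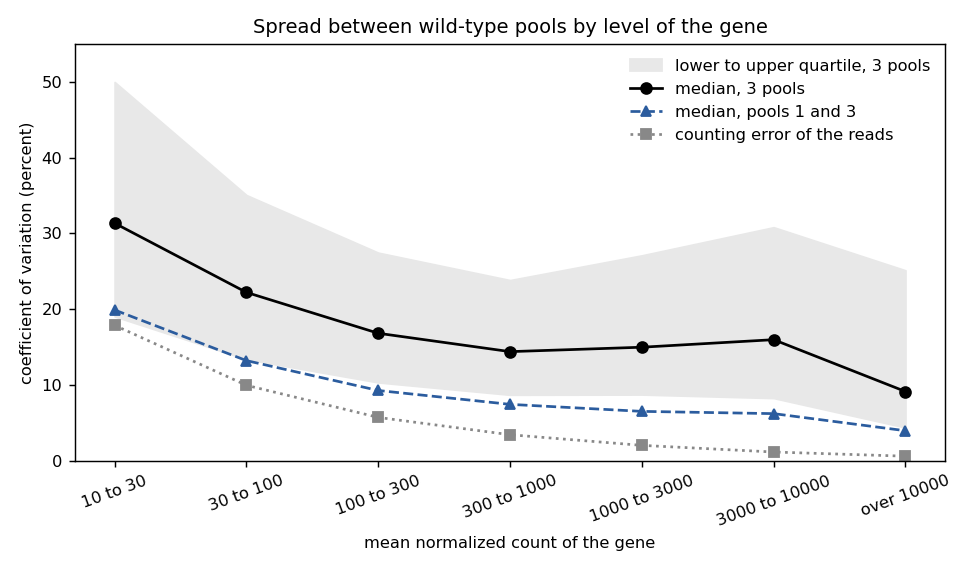
Coefficient of variation in percent (vertical axis) of genes grouped by mean normalized count (horizontal axis). The black line is the median over the 3 wild-type pools shaded from the lower to the upper quartile, the dashed line the median for pools 1 and 3, and the dotted line the counting error. At 3000 to 10000 the 3-pool median is 16.0%, the median of pools 1 and 3 is 6.21%, and the counting error is 1.14%. The dashed line rests on fewer pools, which lowers a median CV at the same true spread.

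The highest pool was at least 2-fold above the lowest in 4027 genes, 20.1%, and at least 10-fold in 483, in 383 of which pool 2 was the lowest and in 73 the highest. In 69 genes the ratio was at least 100, and pool 2 was the lowest in 67. Among the 13389 genes averaging 100 or more, the 15 with the highest ratio (a value under 3 reads being set to 3 reads) were 12 pancreatic or related protease and enzyme genes, the chitinases chia.1 and chia.2, and a globin. The digestive ones were c6ast4, zgc:136461, ela2l, ela2, prss59.1, ela3l, amy2a, ctrl, sycn.2, cpa1, zgc:112160 and cel.1, of which ela2, an elastase, had 9000.4, 11.5 and 15775 and amy2a, pancreatic amylase, 10557, 12.7 and 14335. The globin, hbbe3, went the other way, with 1.74, 1323 and 0. Besides globins the genes highest in pool 2 by this ratio, named after their values were seen, were dao.1, a D-amino acid oxidase (11.0, 1591 and 8.28), the photoreceptor factor crx given above, pmelb, a pigment granule gene (6.97, 299 and 16.0), and emilin3a, a matrix gene expressed in the notochord (17.4, 346 and 8.87). The collagen chaperone serpinh1b (492, 2369 and 88.1) and the collagen hydroxylase p4ha1b (122, 1152 and 75.7) also belonged to them.

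Between pools 1 and 3 the widest ratios were those of lens crystallins, 10 of the first 15, with cryba1b at 13.4, 43.2 and 424 and crygm2d13 at 94.7, 369.5 and 2028. Retinal transcription factors also stood among them, crx as given above and vsx1, a factor of bipolar cells, at 25.6, 482 and 244. As list sums, exocrine pancreas, intestine and erythrocytes set pool 2 apart from both other pools, while the lens separated all 3. Single genes departed from this, such as the gut gene fabp6 (947, 1.73 and 115), which was also among these 15.

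The most even genes were of many kinds. rps3, a ribosomal protein gene, had 16846, 16813 and 16836, zgc:63569 286, 287 and 287 and slc35a5, a nucleotide sugar transporter gene, 109, 109 and 109. lrrc4.1 had 357, 358 and 356 and the ubiquitin ligase scaffold cul4b 1056, 1064 and 1064. The other 10 were si:ch211-197h24.6, rpl39, pdxdc1, brca2, rps12, arid3c, itm2ca, actr10, WDR1 and snx1a, with a CV of at most 0.596%. They are the extreme of 13389 genes in 3 pools and lie below counting error at their level, so a CV this small is a description of these pools.

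Genes often used as references for quantitative PCR had a median CV of 6.19%. Since spread differs with level, each was set against the median of genes in its own range of means (the ranges of the plot of spread by level). Of the 18 genes 14 lay below that median. The median of that range is 9.13% above 10000, where 8 of the 18 stand. The ribosomal genes rpl13a (18119.9, 17917 and 17752), rpl11 (24389, 22439.9 and 22861), rpl13 (14381, 13792 and 13909) and rps18 (11107, 10059 and 10705) and the less abundant mob4 (1208, 1234 and 1188) and lsm12b (1046, 1156 and 1039) were even, as were actb1 and actb2. tuba1c (1684, 3189 and 2151), sdha (2526, 1473 and 2944) and hprt1 (830.2, 567 and 815) were not, and all but tuba1c were lowest in pool 2. gapdh, listed here with fast muscle, had 32247, 17263 and 40492, whereas its paralogue gapdhs had 10077, 10984 and 9189. For b2m, a gene of low level in these larvae, the values were 70.297, 53.6 and 47.9.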

How the data were processed

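RNA-seq was measured in pools of larvae, and the 3 wild-type libraries of the 6 in the series are described. According to the methods, libraries came from a stranded poly(A) kit. The submitters' notes name TopHat2, HISAT2, HTSeq and GRCz11, with no role or version. The authors deposited signal values, the reads of a gene after division by a size factor of the library. Dividing each value by the smallest one above 0 in its library returned whole numbers of reads in 100% of cases (tolerance 0.001 reads) and 21863982 to 23516860 reads per library. Library pairs differed by more than sampling noise (chi-square over degrees of freedom 18.7 to 112), so none was counted as a duplicate, and 0 columns of per-sample values were unmapped. The deposited columns of the authors' comparison with mutants (a pooled mean, fold changes with standard errors, a test statistic and p-values) were not used.

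Means, SDs, shares and CVs were computed over the 3 libraries with Python 3.11.15, numpy 2.4.6, pandas 2.3.3 and matplotlib 3.10.9. Measures of spread took genes averaging 10 or more, and pairs were compared as log2(value + 1). No groups were compared and no p-value was computed, because there is 1 group. Dispersion was also estimated with edgeR 4.0.16 (R 4.3.3) on the recovered reads, and the CV and dispersion calculations were checked on simulated counts of known spread. Values under 3 reads were set to 3 reads to rank genes by ratio. Symbols, biotypes and coordinates (GRCz11) are those of the deposited table, and a separate list of gene names held 29178 of its 31901 identifiers. Where a symbol stood for several identifiers (567 symbols), every identifier entered the sums and the most abundant is printed. Gene families were taken by symbol.

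Genes were named by a rule that took the 30 highest means, the 3 first members of each of the 44 lists and members below 1, the first gene of each biotype and chromosome, the 15 most and 15 least variable genes averaging 100 or more, the hox genes of groups 9 to 13, and dscaml1. Not all that the rule takes are printed, and list members beyond it were named after their values were seen. The subject, the rule and the lists were chosen with earlier results of these data known. Alternatives were other minimum values, pseudocounts and scalings, gene sets without the most abundant or mitochondrial genes, and each library left out in turn.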

Additional observations from a re-analysis of the deposited data

How the results depend on the processing

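Depth limits low genes most: at means of 10 to 30 counting error was 17.9% of the value. No transcript lengths were at hand, so levels per coding length, planned for concentration and organ shares, were not run. No paired analysis was possible because the libraries form 1 group and the results come from no test. With 3 pools, leaving out 1 cannot move a mean by 1 SD, so the values themselves are given. With 1 pool left out, 23523 to 23696 genes had reads in all remaining pools (23210 with all 3). The share of the 100 most abundant genes was 26.3% to 26.7% (26.4% with all 3), and that of protein-coding genes stayed at 99.31%. Chromosome 3 held 7.21% to 7.43% (7.35% with all 3) and all marker lists 18.8% to 20.2% (19.3%). The posterior share of hox counts (mean 7.64%) was 8.68%, 6.26% and 7.99% in pools 1, 2 and 3.

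The median CV of 18.3% ranged from 9.70% to 19.1% when 1 pool was left out, and 9.70% was the value without pool 2. With fewer pools a median CV is lower at the same true spread, so these are not strictly comparable with 18.3%. The edgeR biological CV had a median of 27.7% (15.5% without pool 2). Without mitochondrial genes the 100 most abundant held 25.7%. Without the 100 most abundant genes the protein-coding share was 99.26% and that of chromosome 3 was 5.60%, and 23 of 25 other chromosomes moved by over 1 SD. Without the most abundant member of each list the lists together held 13.6%, and 25 of 44 lists moved by over 1 SD.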
